A study of Mus musculus with 6 samples.

Results

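The genes described here drive and restrain the cell division cycle, and were read in liver RNA of mice deficient in Ugcg and of wildtype mice. Members were the probe sets of the deposited table, each named by an Entrez gene number, whose mouse gene symbol is on a list of 37 cell cycle genes, and 34 of the 37 were found among 16331 gene probe sets. They fall into 12 genes of G1 and its exit, 10 of 11 listed genes of S phase and 12 of 14 listed genes of mitosis. Pcna, Mki67 and Stmn1 are not analysed here. Biotin-labelled cRNA made from liver RNA was read on Affymetrix arrays, with 1 log2 expression value per gene. The Ugcg-deficient group held 3 arrays (427, 429 and 431) and the wildtype group held 3 arrays (426, 428 and 430). The labels give the genotype and the organ; they do not give the Ugcg allele, any Cre driver, the strain, age or sex, any treatment, or whether a sample came from 1 animal. The p-values therefore rest on the spread among arrays, part or all of which may be technical.

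Ugcg makes glucosylceramide, the first glycolipid of the main glycosphingolipid pathway. Most hepatocytes of an adult liver are out of the cycle, in G0, and can re-enter it after tissue loss or injury. A D cyclin with Cdk4 or Cdk6 begins the phosphorylation of the retinoblastoma protein, cyclin E with Cdk2 continues it, and E2F factors are then released to transcribe the genes of DNA replication. Genes of mitosis are transcribed later, largely through promoters that carry CCAAT boxes and cell cycle homology regions (CHR). In resting cells the DREAM complex, which contains the MuvB complex, keeps these genes silent through the CHR.

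The targeted gene was read first. Ugcg (Entrez gene 22234) read 7.12, 6.70 and 6.68 on Ugcg-deficient arrays 427, 429 and 431, against 6.81, 6.85 and 6.87 on wildtype arrays 426, 428 and 430, in log2 expression. The groups overlapped, and no label or file places the probes relative to the deletion, so these readings are no check of the genotype. All differences are Ugcg-deficient minus wildtype on the log2 scale, tested by limma, with p-values adjusted by Benjamini-Hochberg across the 16331 probe sets. Hepatocyte markers were strong on every array: their list mean over 9 measured genes was 13.49 to 13.56 on Ugcg-deficient arrays and 13.50 to 13.505 on wildtype arrays, and Alb (albumin) read 14.60 to 14.69 on Ugcg-deficient and 14.64 to 14.69 on wildtype arrays. Wildtype 430 stood apart in 11 measured genes of the exocrine pancreas, with a list mean of 9.47, against 6.57 to 6.77 on Ugcg-deficient arrays and 6.67 on the other two wildtype arrays. The difference without wildtype 430 is given beside each member for which it changed sign or moved by over 1.5 times. Ugcg-deficient 429 had the highest list mean of the 6 arrays for bile duct, lymphocyte, macrophage and stellate and endothelial markers, and Ugcg-deficient 431 for adipose markers; their values follow the results they bear on. Of the 9 measured hepatocyte markers, 4 had a positive and 5 a negative difference (median -0.02). The groups did not overlap for 2 of them, or 22.2% beside 9.57% of all probe sets, 1 higher and 1 lower. The higher one was Tat, the tyrosine aminotransferase of amino acid breakdown. It read 12.69, 12.91 and 13.24 on Ugcg-deficient arrays, against 12.58, 12.53 and 12.44 on wildtype arrays, a difference of 0.43 (limma adjusted p = 0.951).

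The comparison of the 34 cell cycle genes between Ugcg-deficient and wildtype liver asked whether genes of entry into the cycle, of DNA synthesis and of mitosis differed in level. None of the 34 passed an adjusted p under 0.05 in the limma fit, where 0.0245% of all probe sets did. At an unadjusted p under 0.05 there were 3 members, or 8.82%, beside 4.99% of all probe sets: Ccnd1 lay higher (2.64% of all probe sets did so at that p), and Rb1 and Rrm2 lay lower (2.35%). The groups of arrays did not overlap for 6 members, or 17.6%, beside 9.57% of all probe sets; Ccnd1, Ccnd2 and Cdkn2c lay higher on all Ugcg-deficient arrays (5.1% of all probe sets did), and Rb1, Rrm2 and Ccnb2 lay lower (4.47%). These shares are counts over 34 genes, carry no test, and the members were chosen with earlier results known. The median difference was 0.04 over the G1 genes, 0.01 over the S-phase genes and 0.0050 over the mitotic genes, beside 0.0059 over all probe sets.

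**Figure D1:**
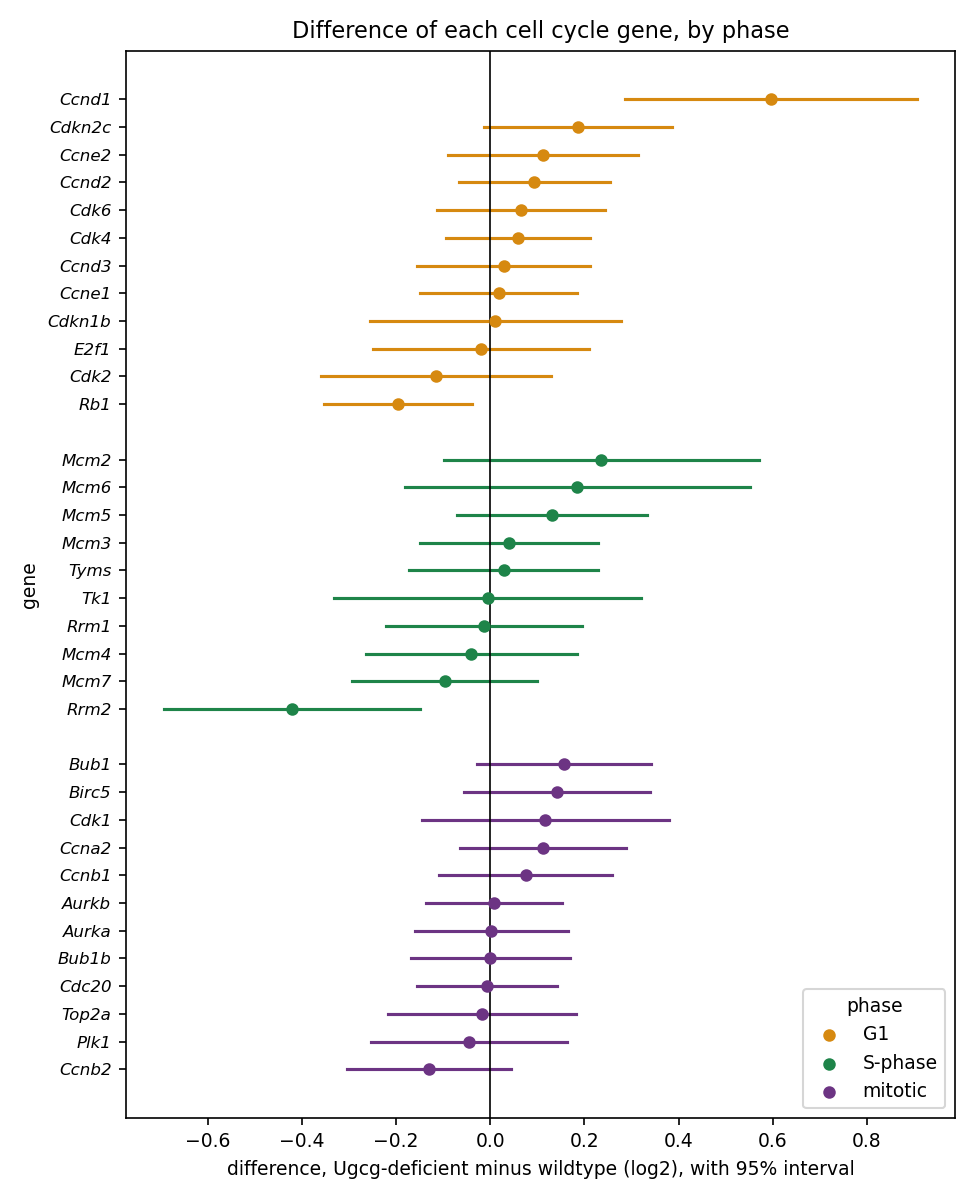
Difference of each of the 34 cell cycle genes (Ugcg-deficient minus wildtype, log2; n = 3 arrays each) with its 95% interval from limma, by phase. The intervals of Ccnd1, Rb1 and Rrm2 do not reach 0, and those of the other 31 genes do.

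Among the genes of G1, the cyclin gene Ccnd1 showed the widest difference of all members. Cyclin D1 is the D cyclin that growth signals induce in hepatocytes as they leave G0. Ccnd1 (Entrez gene 12443) read 8.60, 8.63 and 8.15 on Ugcg-deficient arrays 427, 429 and 431, against 7.84, 7.72 and 8.04 on wildtype arrays 426, 428 and 430. Every Ugcg-deficient array lay above every wildtype array, with the narrowest gap between Ugcg-deficient 431 and wildtype 430. The means were 8.46 ± 0.27 on Ugcg-deficient and 7.87 ± 0.16 on wildtype arrays (SD, n = 3 each), a difference of 0.60 (SE 0.137, 95% interval 0.286 to 0.907) or 1.51-fold, which did not pass (limma adjusted p = 0.670, unadjusted p = 0.00191). The difference was 0.51 without Ugcg-deficient 429 and 0.75 without Ugcg-deficient 431, and its adjusted p ran from 0.273 to 1 over 12 refits.

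The other D cyclins and their kinases differed far less in value. Ccnd2 encodes cyclin D2, and it read 7.06, 7.19 and 7.06 on Ugcg-deficient arrays, against 6.97, 7.04 and 7.02 on wildtype arrays. The groups did not overlap, but they were 0.0195 apart at their nearest, and the difference of 0.09 (95% interval -0.067 to 0.254) did not pass (limma adjusted p = 0.982). Without Ugcg-deficient 429, its highest array, the difference was 0.05. Ccnd3, for cyclin D3, read 8.08, 8.22 and 8.09 on Ugcg-deficient arrays, against 7.98, 8.17 and 8.15 on wildtype arrays. These groups overlapped, and the difference of 0.03 turned to -0.03 without wildtype 426 and to -0.01 without Ugcg-deficient 429; it was 0.05 without wildtype 430. Cdk4 encodes a kinase that the D cyclins switch on, and it read 7.96, 7.97 and 7.87 on Ugcg-deficient arrays, against 7.85, 7.90 and 7.89 on wildtype arrays. Its sister kinase gene Cdk6 read 6.40, 6.52 and 6.60 on Ugcg-deficient arrays, against 6.40, 6.51 and 6.42 on wildtype arrays. The differences of 0.06 for each kinase gene were within the spread of the arrays (limma adjusted p = 0.986 for both).

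Of the restraints on G1, Rb1 lay lower and Cdkn2c higher on all Ugcg-deficient arrays. Rb1 encodes the retinoblastoma protein, which binds E2F factors and holds cells in G1. It read 7.53, 7.39 and 7.45 on Ugcg-deficient arrays, against 7.68, 7.66 and 7.63 on wildtype arrays, with no overlap. The difference was -0.20 (SE 0.0694, 95% interval -0.354 to -0.039), and it did not pass (limma adjusted p = 0.951, unadjusted p = 0.0201). Cdkn2c encodes p18Ink4c, an inhibitor of Cdk4 and Cdk6. It read 7.29, 7.05 and 7.01 on Ugcg-deficient arrays, against 6.93, 6.90 and 6.97 on wildtype arrays. The groups did not overlap; the difference of 0.19 (95% interval -0.014 to 0.386, limma adjusted p = 0.982) was 0.10 without Ugcg-deficient 427, the highest array. Cdkn1b, for the inhibitor p27Kip1, averaged 6.42 ± 0.12 on Ugcg-deficient and 6.41 ± 0.22 on wildtype arrays (SD, n = 3 each), and its lowest reading, 6.16, was on wildtype 430. Its difference was 0.01, and -0.11 without that array.

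The remaining G1 genes act at the step into S phase, and their groups overlapped. The cyclin E genes Ccne1 and Ccne2 differed by 0.02 (0.0069 without wildtype 430) and 0.11, and the higher mean of Ccne2 came with 6.24 on Ugcg-deficient 427, beside 5.93 to 6.02 on the other five arrays. Cdk2, the kinase of cyclins E and A, averaged 7.49 ± 0.15 on Ugcg-deficient arrays and 7.60 ± 0.17 on wildtype arrays (SD, n = 3 each), a difference of -0.12. It was -0.21 without wildtype 430 and -0.06 without wildtype 426. E2f1, an activating E2F factor, differed by -0.02, and by 0.06 without wildtype 430. Of the 12 G1 genes, 9, or 75%, had a positive difference, beside 52.5% of all probe sets. When any 1 array was left out, 8 of the 12 kept their sign, beside 8426 of all 16331 probe sets.

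**Figure D2:**
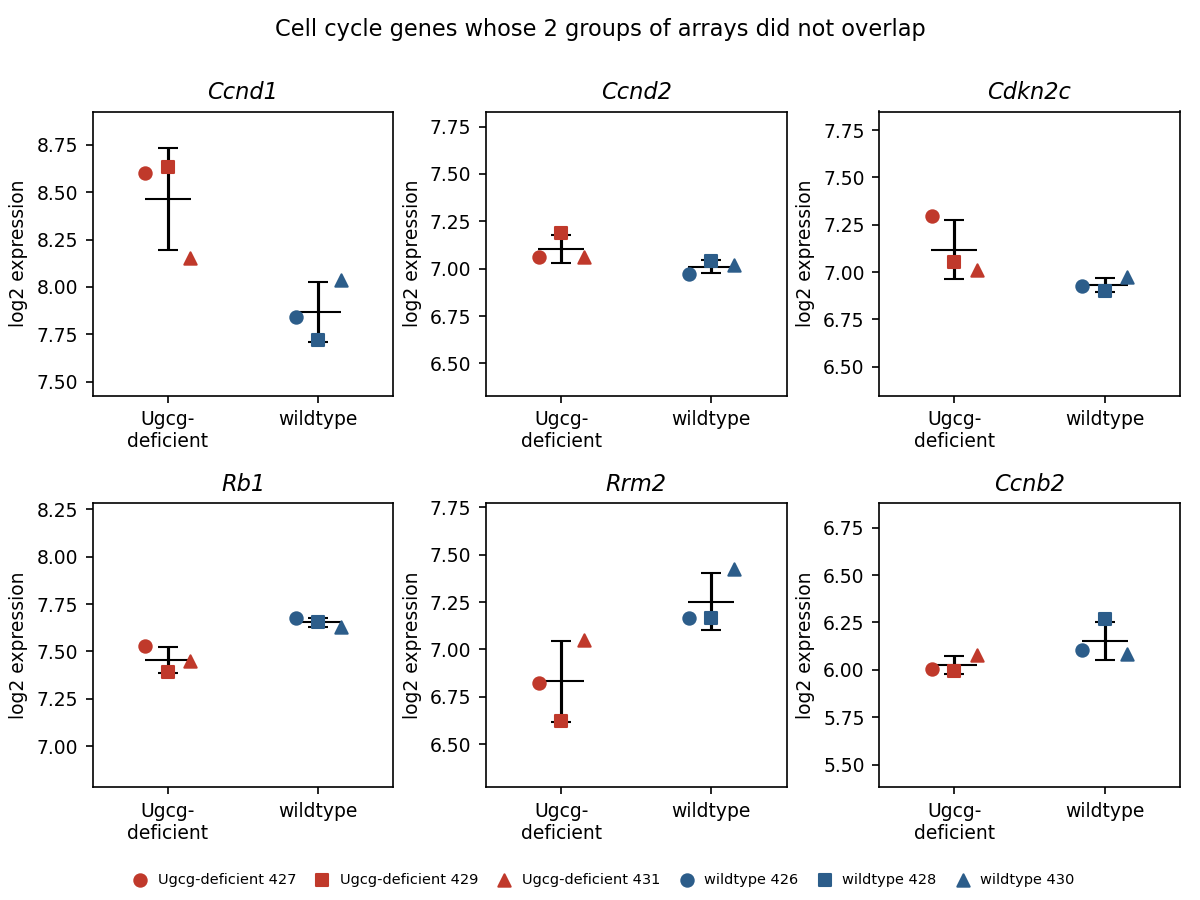
Log2 expression of the 6 cell cycle genes whose groups did not overlap, on each Ugcg-deficient (left) and wildtype (right) array; bars are the mean and SD (n = 3 each), and all panels span the same range. Ccnd1 sits at 8.15 to 8.63 on Ugcg-deficient and 7.72 to 8.04 on wildtype arrays, and Rrm2 at 6.62 to 7.05 on Ugcg-deficient and 7.17 to 7.43 on wildtype arrays.

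Among the genes of S phase, Rrm2 differed most. It encodes the small subunit of ribonucleotide reductase, the enzyme that makes deoxyribonucleotides, and this subunit is the one whose level follows S phase. Rrm2 (Entrez gene 20135) read 6.82, 6.62 and 7.05 on Ugcg-deficient arrays 427, 429 and 431, against 7.17, 7.17 and 7.43 on wildtype arrays 426, 428 and 430. All Ugcg-deficient arrays lay below all wildtype arrays, and wildtype 430 was the highest. The means were 6.83 ± 0.22 on Ugcg-deficient and 7.25 ± 0.15 on wildtype arrays (SD, n = 3 each). The difference of -0.42 (SE 0.120, 95% interval -0.693 to -0.150) did not pass (limma adjusted p = 0.892, unadjusted p = 0.00672); it was -0.32 without Ugcg-deficient 429 and -0.34 without wildtype 430. The large subunit gene Rrm1, whose product is present through the cycle, averaged 7.24 ± 0.08 on Ugcg-deficient and 7.25 ± 0.15 on wildtype arrays (SD, n = 3 each), a difference of -0.01, and of -0.03 without wildtype 430.

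With all arrays, the genes for thymidine nucleotides differed far less than Rrm2. Tk1, thymidine kinase, averaged 7.58 ± 0.12 on Ugcg-deficient and 7.59 ± 0.31 on wildtype arrays (SD, n = 3 each). Wildtype 430 was its lowest array at 7.23, and the difference of -0.0052 was -0.18 without that array. Tyms, thymidylate synthase, differed by 0.03, with its highest reading, 6.12, on Ugcg-deficient 427, and it differed by -0.06 without that array.

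The Mcm2 to Mcm7 genes encode the 6 subunits of the ring helicase that is loaded on replication origins in G1 and unwinds DNA in S phase. Mcm2 read 6.57, 7.19 and 6.76 on Ugcg-deficient arrays, against 6.56, 6.75 and 6.51 on wildtype arrays. Mcm6 read 6.44, 6.91 and 6.45 on Ugcg-deficient arrays, against 6.47, 6.66 and 6.12 on wildtype arrays. For both genes Ugcg-deficient 429 was the highest array and the groups overlapped. The difference of Mcm2 was 0.24 (95% interval -0.099 to 0.570) and that of Mcm6 was 0.19 (95% interval -0.181 to 0.551), with limma adjusted p-values of 0.982 and 0.983. Without Ugcg-deficient 429 they were 0.06 and 0.03, and without wildtype 430 they were 0.19 and 0.04. Mcm5 (0.13) and Mcm3 (0.04) also had their highest reading on Ugcg-deficient 429, at 6.497 and 6.69. Mcm4 (-0.04) and Mcm7 (-0.10) had theirs on wildtype 428, at 7.01 and 8.10.

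**Figure D3:**
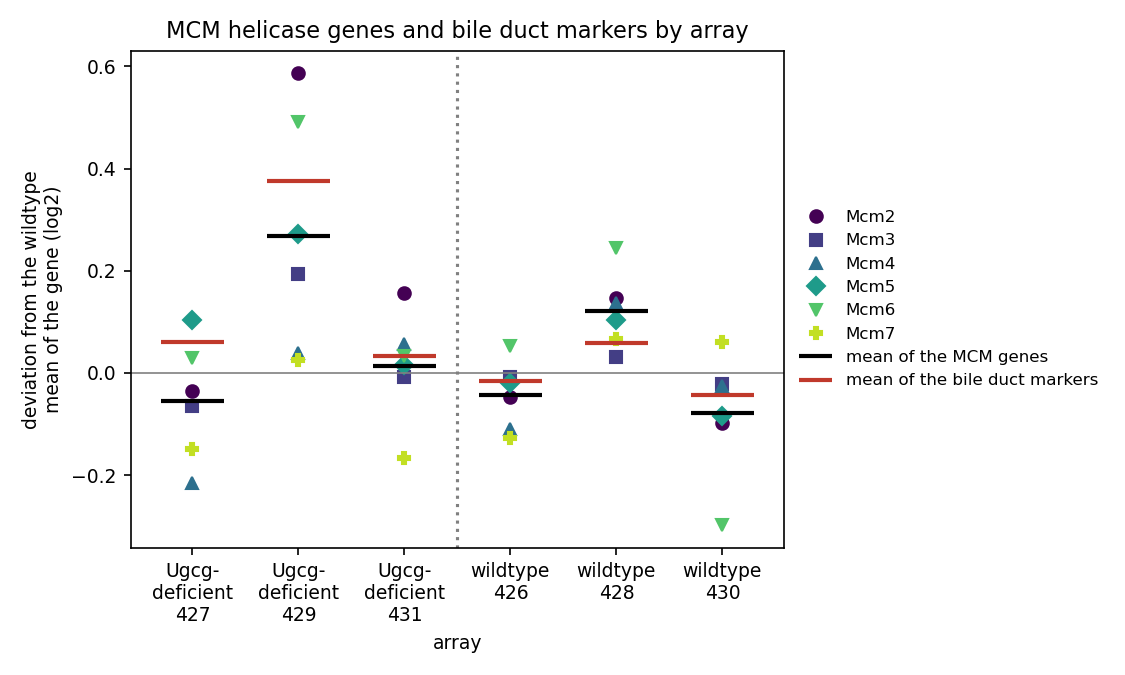
Deviation of each MCM gene from its own wildtype mean (log2) on each array, with the mean over the 6 MCM genes (black bars) and over 10 bile duct markers (red bars). Both means are highest on Ugcg-deficient 429, at 0.27 and 0.38.

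The mean deviation of the 6 MCM genes from their wildtype means was -0.05, 0.27 and 0.01 on Ugcg-deficient 427, 429 and 431, against -0.04, 0.12 and -0.08 on wildtype 426, 428 and 430. Ugcg-deficient 429 was thus the highest array and wildtype 428 the second. On the same scale the 10 measured bile duct markers had 0.06, 0.38 and 0.03 on Ugcg-deficient arrays, against -0.02, 0.06 and -0.04 on wildtype arrays. Krt19, the bile duct keratin, read 7.60 on Ugcg-deficient 429 and 6.33 to 6.46 on the other five arrays. The list level of these markers was 6.57 to 6.91 on Ugcg-deficient and 6.49 to 6.59 on wildtype arrays, with a positive difference for 8 of 10 and a negative one for 2. Tspan8, a tetraspanin gene of that list, read 6.09, 6.88 and 6.22 on Ugcg-deficient arrays, against 5.99, 6.01 and 5.98 on wildtype arrays, without overlap, a difference of 0.40 (limma adjusted p = 0.982) that was 0.16 without Ugcg-deficient 429. Bile duct markers were not alone in this: on Ugcg-deficient 429 the mean deviation was also the highest of the 6 arrays for lymphocyte (0.12), macrophage (0.19) and stellate and endothelial markers (0.14). The part of these cells in the MCM values was not tested, and in whole liver more cells of a type and more RNA per cell cannot be told apart. In a further 41 genes of replication outside the members, the mean deviation was -0.02, -0.0022 and -0.03 on Ugcg-deficient 427, 429 and 431, against -0.04, 0.06 and -0.02 on wildtype 426, 428 and 430. Wildtype 428 was thus the highest array and Ugcg-deficient 429 the second, the same pair as for the MCM genes in the other order. Mcm10 had the highest SE of the 41 genes and weighs on these means. It read 10.36, 9.19 and 9.08 on Ugcg-deficient arrays, against 9.42, 9.49 and 10.82 on wildtype arrays. The median deviations were -0.02, 0.03 and -0.0016 on Ugcg-deficient 427, 429 and 431, against -0.03, 0.06 and -0.04 on wildtype 426, 428 and 430. Of the 41 genes, 12 read highest on Ugcg-deficient 429, beside 13 on wildtype 428. Over all 16331 probe sets, 3119 read highest on Ugcg-deficient 429 and 2767 on wildtype 428.

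S-phase genes are classical E2F targets, and 3 start regions that differ in what the searched letters find are shown. They are those of Rrm2 and of Mcm5 and Mcm6, 2 of the 4 MCM genes that read highest on Ugcg-deficient 429. RefSeq windows of assembly GRCm38.p6 run from 250 bases before the annotated start to 50 after it; capitals mark E2F words (TTTGGCGC, TTTCCCGC, TTTCGCGC or TTTGCCGC) and CCAAT boxes on either strand, so that a box on the other strand is printed as ATTGG.
Mcm5: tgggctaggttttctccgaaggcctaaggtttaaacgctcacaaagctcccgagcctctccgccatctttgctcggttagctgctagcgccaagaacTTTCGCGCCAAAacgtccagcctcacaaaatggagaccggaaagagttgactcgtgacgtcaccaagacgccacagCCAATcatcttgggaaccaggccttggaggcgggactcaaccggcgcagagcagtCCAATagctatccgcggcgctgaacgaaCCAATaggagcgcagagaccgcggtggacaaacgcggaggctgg
Mcm6: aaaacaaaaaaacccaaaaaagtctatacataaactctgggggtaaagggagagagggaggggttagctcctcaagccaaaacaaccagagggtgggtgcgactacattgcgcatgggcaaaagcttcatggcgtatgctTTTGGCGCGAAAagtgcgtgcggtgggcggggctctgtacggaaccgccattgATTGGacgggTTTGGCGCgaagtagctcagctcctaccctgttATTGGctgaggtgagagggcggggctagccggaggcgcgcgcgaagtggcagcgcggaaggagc
Rrm2: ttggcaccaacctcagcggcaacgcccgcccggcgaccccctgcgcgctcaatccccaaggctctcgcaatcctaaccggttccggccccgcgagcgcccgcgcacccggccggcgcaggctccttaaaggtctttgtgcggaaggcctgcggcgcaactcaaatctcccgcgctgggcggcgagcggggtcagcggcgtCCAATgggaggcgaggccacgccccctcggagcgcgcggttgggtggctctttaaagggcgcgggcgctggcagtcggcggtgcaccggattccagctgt
Mcm5 lies at chr8:75109259-75109558 on the plus strand, Mcm6 at chr1:128359656-128359955 on the minus strand and Rrm2 at chr12:24708004-24708303 on the plus strand. Mcm5 holds 2 E2F words, which overlap each other on opposite strands, and 3 CCAAT boxes. Mcm6 holds 3 E2F words, 2 of them overlapping in the same way, and 2 CCAAT boxes. Rrm2 holds 1 CCAAT box and no E2F word of the 4 searched. A window was available for 27 of the 34 members. At least 1 E2F word was found in 4 of 9 S-phase genes (Mcm3, Mcm5, Mcm6 and Mcm7), 1 of 8 G1 genes (Cdk2) and 1 of 10 mitotic genes (Cdk1), beside 2.61% of all 27025 genes with a window. Of the MCM genes not shown, Mcm2 (0.24), also highest on Ugcg-deficient 429, held none of the 4 words searched, and Mcm7 (-0.10) held at least 1. Any tie between the words and the differences was not tested. All these matches are letters in a window and say nothing of binding in these livers.

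Among the genes of mitosis, Bub1, Birc5 and Ccnb2 differed most, and none of the 12 reached an unadjusted p under 0.05. Bub1, a kinase of the spindle checkpoint, read 5.79, 5.87 and 5.95 on Ugcg-deficient arrays, against 5.81, 5.73 and 5.60 on wildtype arrays. Its groups overlapped by the lowest Ugcg-deficient and the highest wildtype array, and the difference was 0.16 (95% interval -0.027 to 0.342, limma adjusted p = 0.982). It was 0.10 without wildtype 430, its lowest array. Birc5, for survivin of the chromosomal passenger complex, read 6.06, 5.99 and 6.19 on Ugcg-deficient arrays, against 5.86, 6.07 and 5.89 on wildtype arrays, a difference of 0.14 that was 0.08 without Ugcg-deficient 431. Ccnb2, for a B-type cyclin that activates Cdk1, read 6.003, 5.99 and 6.08 on Ugcg-deficient arrays, against 6.11, 6.27 and 6.08 on wildtype arrays. The groups of Ccnb2 did not overlap, but were 0.0068 apart at their nearest; the difference was -0.13 (95% interval -0.303 to 0.044, limma adjusted p = 0.982) and -0.07 without wildtype 428.

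The cyclin genes Ccnb1 and Ccna2 and the kinase gene Cdk1 did not share the negative sign of Ccnb2. Top2a, Plk1, Bub1b and Cdc20 did. Ccnb1, the other B-type cyclin gene measured, differed by 0.08, and by 0.0071 without wildtype 430. Cdk1, the kinase that drives entry into mitosis, averaged 6.86 ± 0.10 on Ugcg-deficient and 6.74 ± 0.23 on wildtype arrays (SD, n = 3 each); its difference of 0.12 was 0.0054 without wildtype 430, its lowest array at 6.52. Ccna2, the cyclin A gene of S phase and mitosis, differed by 0.11 and read lowest, at 6.14, on the same wildtype array; without it the difference was 0.05. Top2a, which untangles chromosomes, differed by -0.02, and by 0.02 without wildtype 430. Among the mitotic kinases Aurka differed by 0.0026 (0.03 without wildtype 430), Aurkb by 0.0073 and Plk1 by -0.05 (-0.09 without wildtype 430). The checkpoint gene Bub1b differed by -0.0003 (0.02 without wildtype 430) and Cdc20, the activator of the anaphase-promoting complex, by -0.0070 (-0.0031 without wildtype 430). Top2a, Aurka, Aurkb, Plk1, Bub1b and Cdc20 all changed sign in at least 1 fit that left out an array.

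The mitotic genes as a group read low. Of the 12, 2 (Cdk1 and Plk1) had a mean above the 40th percentile of all probe sets, a value of 6.51, beside 7 of 12 G1 genes and 7 of 10 S-phase genes. Their readings ran from 5.60 to 7.18 over the 6 arrays. The 95% intervals of the 12 lay between -0.303 and 0.380, so the widest of them reached 1.30-fold higher in Ugcg-deficient liver. No detection calls were used, and a low reading on an array can understate a change in the transcript. The mean deviation of the mitotic genes was -0.0068, 0.04 and 0.07 on Ugcg-deficient 427, 429 and 431, against 0.03, 0.02 and -0.05 on wildtype 426, 428 and 430, so the groups overlapped.

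The start region of Ccnb2 is printed because its gene was the 1 mitotic member without overlap and because it shows the layout of a cell cycle promoter. Capitals mark CCAAT boxes and CHR words (TTTGAA or TTCGAA), searched on both strands in the RefSeq window of GRCm38.p6, chr9:70421505-70421804 on the minus strand.
Ccnb2: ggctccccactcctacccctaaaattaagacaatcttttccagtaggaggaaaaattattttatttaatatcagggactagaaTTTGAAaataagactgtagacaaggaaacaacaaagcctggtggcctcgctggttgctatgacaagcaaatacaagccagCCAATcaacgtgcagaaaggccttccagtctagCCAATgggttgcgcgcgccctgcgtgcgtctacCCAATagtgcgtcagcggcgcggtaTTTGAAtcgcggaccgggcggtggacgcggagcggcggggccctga
The window holds 3 CCAAT boxes, at bases 164, 197 and 230, and 2 CHR words, at bases 84 and 255. CHR words were found in 8 of 10 mitotic genes with a window (Aurka, Bub1, Bub1b, Ccnb2, Cdc20, Cdk1, Plk1 and Top2a), 2 of 9 S-phase genes and 0 of 8 G1 genes, beside 21.7% of all genes. CCAAT boxes were found in 9 of 10 mitotic, 7 of 9 S-phase and 4 of 8 G1 genes, beside 41.1% of all genes. Mitotic genes are known for these elements, so the shares are no independent result. As with the E2F words, the matches are letters and no measure of binding, and their part in the differences was not tested.

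**Figure D4:**
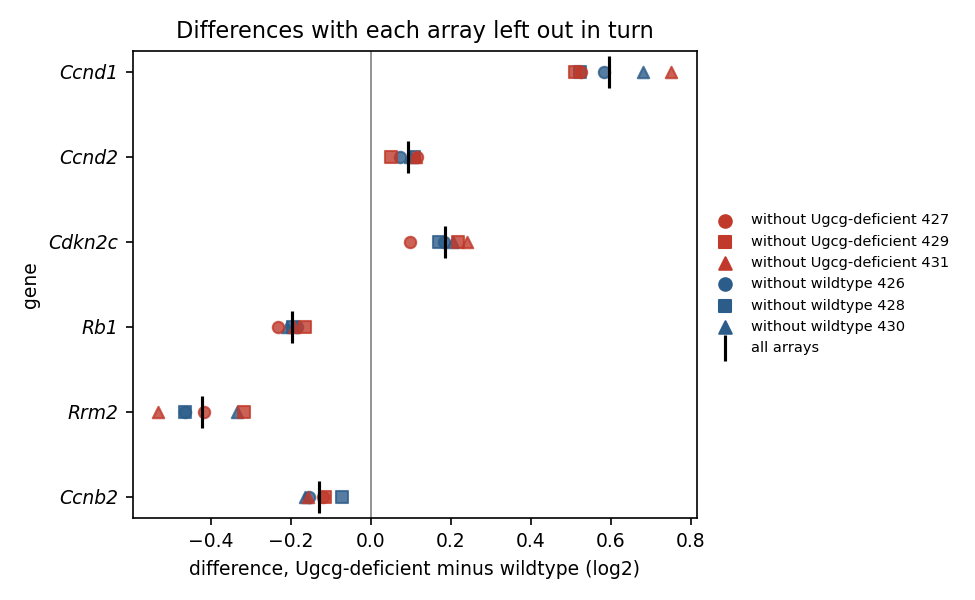
Difference (Ugcg-deficient minus wildtype, log2) of the 6 genes whose groups did not overlap, with all arrays (vertical bar) and with each array left out in turn (red, a Ugcg-deficient array; blue, a wildtype array). Ccnd1 stays between 0.51 and 0.75 and Rrm2 between -0.53 and -0.32. No point can cross 0, because the groups of these genes do not overlap.

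Other regulators of the cycle were read from lists beside the members. Of 26 further G1 regulators, 10 had a positive and 16 a negative difference (median -0.04), and 3, all lower, reached an unadjusted p under 0.05, or 11.5% beside 4.99% of all probe sets, none of them after adjustment. The groups did not overlap for 5 of the 26, or 19.2% beside 9.57% of all probe sets: Cdkn2b (0.16), E2f6 (0.08) and Skp2 (0.13) lay higher on all Ugcg-deficient arrays, and Cdkn1a and Ccng2 lower. The 3 at that p were Cdkn1a, Ccng2 and Myc; the groups overlapped for Myc (-0.50), which is named because its p was seen. Cdkn1a, for the inhibitor p21, read 8.29, 8.24 and 8.58 on Ugcg-deficient arrays, against 8.90, 9.23 and 8.75 on wildtype arrays. The groups did not overlap, and the difference was -0.59 (95% interval -0.893 to -0.288, limma adjusted p = 0.670). Ccng2, for cyclin G2, which is abundant in resting cells, read 8.65, 8.56 and 8.20 on Ugcg-deficient arrays, against 8.98, 8.95 and 8.73 on wildtype arrays. It too did not overlap, with a difference of -0.41 (95% interval -0.696 to -0.132, limma adjusted p = 0.951). The difference of Ccng2 was -0.28 without Ugcg-deficient 431.

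Of 41 further replication genes, 22 had a positive and 19 a negative difference (median 0.01). None reached an unadjusted p under 0.05, which 4.99% of all probe sets did. The groups did not overlap for 3, or 7.32% beside 9.57% of all probe sets. Of 39 further mitotic genes, 20 had a positive and 19 a negative difference (median 0.0029). The groups did not overlap for 2, or 5.13% beside 9.57% of all probe sets: Mybl2 and Kif23, both lower. Mybl2, for B-Myb, a transcription factor that joins the MuvB complex in S phase, was the 1 gene of this list at an unadjusted p under 0.05 (0.0499). It read 6.003, 5.88 and 5.85 on Ugcg-deficient arrays, against 6.07, 6.12 and 6.04 on wildtype arrays, a difference of -0.17 (limma adjusted p = 0.982). The medians of both lists lay close to that of all probe sets.

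Of 28 genes of growth signals in hepatocytes, 17 had a positive and 11 a negative difference (median 0.02), and none passed. At an unadjusted p under 0.05 there were 2, both higher, or 7.14% beside 4.99% of all probe sets. The groups did not overlap for 4 of the 28, or 14.3% beside 9.57% of all probe sets; Tbx3, Yap1 and Ereg lay higher on all Ugcg-deficient arrays and Egf lower. Tbx3, a T-box factor that Wnt signals induce in pericentral hepatocytes, read 7.64, 8.11 and 7.47 on Ugcg-deficient arrays, against 7.04, 7.14 and 6.98 on wildtype arrays. Its difference was 0.68 (limma adjusted p = 0.638). Yap1, the coactivator restrained by the Hippo kinases, read 8.25, 8.10 and 8.37 on Ugcg-deficient arrays, against 7.92, 8.06 and 7.97 on wildtype arrays. Its difference was 0.26 (limma adjusted p = 0.951). Tbx3 was 1 of 8 among the 28 genes that read highest on Ugcg-deficient 429, and 8 others read highest on wildtype 428. Of the 34 members 10 read highest on Ugcg-deficient 429, beside 3119 of all 16331 probe sets.

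Markers of other cells that can divide in liver were read on the same arrays. Of 9 measured lymphocyte markers, 5 had a positive and 4 a negative difference, with a list mean of 6.32 to 6.47 on Ugcg-deficient and 6.30 to 6.39 on wildtype arrays; Ugcg-deficient 429 was the highest. All 10 measured macrophage markers had a negative difference, with a list mean of 8.14 to 8.73 on Ugcg-deficient and 8.46 to 8.67 on wildtype arrays; the groups overlapped and no marker reached an unadjusted p under 0.05. For these markers Ugcg-deficient 429 had the highest list mean and Ugcg-deficient 431 the lowest, with 8 of the 10 lowest on 431. Their median difference was -0.11, and 0.04 without Ugcg-deficient 431, and 2 of the 10 kept their sign when any 1 array was left out. Of 7 measured markers of red cell precursors, 2 had a positive and 5 a negative difference, with a list mean of 6.89 to 6.91 on Ugcg-deficient and 6.87 to 6.94 on wildtype arrays. Among them Tfrc, the transferrin receptor of iron uptake, read 6.68, 6.54 and 6.46 on Ugcg-deficient arrays, against 6.36, 6.25 and 6.396 on wildtype arrays, without overlap, a difference of 0.22 (limma adjusted p = 0.951). Of 11 stellate and endothelial markers, 6 had a positive and 5 a negative difference, with a list mean of 7.86 to 8.04 on Ugcg-deficient and 7.86 to 7.99 on wildtype arrays, highest on Ugcg-deficient 429. Of 7 measured adipose markers, 5 had a positive and 2 a negative difference, with a list mean of 6.52 to 7.19 on Ugcg-deficient and 6.52 to 6.61 on wildtype arrays. Their mean deviation was 0.63 on Ugcg-deficient 431, beside -0.04 and 0.04 on Ugcg-deficient 427 and 429 and -0.04 to 0.05 on wildtype arrays. Without detection calls, none of these markers can be called present or absent. The part of these cells in the cell cycle values was not tested.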

How the data were processed

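Liver RNA of 3 Ugcg-deficient and 3 wildtype samples was measured on Affymetrix arrays. The authors deposited log2 expression values, as read from their range of 5.38 to 14.69; the method behind them (normalization, summary, software) is, in the sources used here, not given. Medians of the arrays (6.79 to 6.81) were left as deposited. Of 16395 probe sets, 64 controls were left out. Row names are Entrez gene numbers: the platform annotation named 15644 probe sets, the RefSeq gene table a further 473 (1 member, Ccnb1), and 214 stayed unnamed.

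Differences were fitted with limma 3.58.1 in R 4.3.3 (lmFit, eBayes, two-sided, 4 residual and 4.85 prior degrees of freedom, Benjamini-Hochberg over 16331 probe sets). The fit was tested on simulated data. With 3 arrays a group, exact permutation reaches p = 0.1 at the lowest and was not used. The number of arrays limits the precision: the median SE of a difference was 0.0847.

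Members and lists were chosen with earlier results of these data known, so no list has a p-value. Every measured member is named; each array is given for the D cyclins, Cdk4, Cdk6, members at an unadjusted p under 0.05 or without overlap, and the 3 per phase that differed most. In the other lists, genes that met both criteria are named, at most 4 a list. Further genes without overlap (Cdkn2b, E2f6, Skp2, Kif23, Ereg, Egf), Myc, Krt19 and Mcm10 are named after their values were seen. As alternatives, arrays were quantile normalized or centred on their medians, dim probe sets (mean not above the 40th percentile) were dropped, the variance was given a trend and made robust, arrays were weighted by quality, the threshold was set at 0.1, and arrays were left out. Matplotlib 3.10.9 (Python 3.11.15) drew the figures.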

Additional observations from a re-analysis of the deposited data

How the results depend on the processing

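No member passed in any of the 12 refits, and the lowest adjusted p of a member was 0.273. Over all probe sets 4 passed, and 8 did with array quality weights, 8 without wildtype 430 and Ugcg-deficient 427 together and 8 at an adjusted p under 0.1; with 1 array left out 0 to 4 passed. With 1 array left out the median ran from 0.0423 to 0.0831 for G1, from -0.000895 (without wildtype 430) to 0.0636 for S-phase and from 0.00582 to 0.0385 for mitotic genes. Without dim probe sets, which kept 16 members, the S-phase median was -0.0127. Of the 34 members, 19 kept their sign in all refits and 15 did not. When any 1 array was left out, 19 of the 34 kept their sign, beside 8426 of all 16331 probe sets. Leaving out 1 array gave ranges of -0.0327 to 0.0657 for Ccnd3, -0.0368 to 0.0457 for Ccne1, -0.129 to 0.0559 for E2f1, -0.114 to 0.102 for Cdkn1b, -0.0366 to 0.0923 for Mcm3, -0.0947 to 0.0477 for Mcm4, -0.0765 to 0.0695 for Rrm1, -0.0632 to 0.0804 for Tyms, -0.184 to 0.0898 for Tk1, -0.102 to 0.0288 for Top2a, -0.0365 to 0.0332 for Aurka, -0.00163 to 0.0145 for Aurkb, -0.119 to 0.0317 for Plk1, -0.0402 to 0.0452 for Bub1b, -0.0310 to 0.00781 for Cdc20 and -0.154 to 0.0675 for Ugcg. Ranges that kept their sign but reached past 1.5 times the difference, or below it by as much, were 0.0514 to 0.116 for Ccnd2, 0.0402 to 0.0900 for Cdk4, 0.0156 to 0.120 for Cdk6, 0.0238 to 0.179 for Ccne2, -0.213 to -0.0597 for Cdk2, 0.0983 to 0.241 for Cdkn2c, 0.0605 to 0.371 for Mcm2, 0.0601 to 0.188 for Mcm5, 0.0319 to 0.307 for Mcm6, -0.160 to -0.0620 for Mcm7, 0.0542 to 0.151 for Ccna2, 0.00708 to 0.135 for Ccnb1, -0.164 to -0.0716 for Ccnb2, 0.00537 to 0.232 for Cdk1, 0.0846 to 0.207 for Birc5 and 0.0996 to 0.205 for Bub1. With array quality weights E2f1 (0.0129), Cdkn1b (-0.0279) and Bub1b (0.0168) turned sign. Without wildtype 430 and Ugcg-deficient 427 together E2f1 (0.0488), Cdkn1b (-0.157), Mcm4 (0.0347), Tyms (-0.0605), Bub1b (0.0659) and Cdc20 (0.00610) did. The cause was not tested. No paired analysis was run, because the labels do not say whether any arrays form pairs.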
